A study of Mus musculus with 25 samples.

Results

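Binding of the cohesin subunit SMC1 was compared in NIH-3T3 cells, an established line of mouse embryonic fibroblasts, with and without induction of the transcription factor TCF-1. Peaks of chromatin immunoprecipitation followed by sequencing were listed once for untreated cells and once for induced cells, so the 2 lists have no replicate check. Both lists were merged wherever peaks overlapped or touched, and each of the 117124 merged regions was classed by the list or lists that called it. The region was called in both lists at 79630 places, in the induced list alone at 13926 and in the untreated list alone at 23568. The whole series holds 25 samples and 1227153 peaks, and besides SMC1 it profiled CTCF in the same fibroblasts (2 lists untreated and 2 induced) and TCF-1 in the induced cells (1 list). The other samples are of Scid.adh, a mouse thymic lymphoma line labelled DN3 for the stage of T cell precursor it resembles, with an empty vector or with a TCF1 knockout. By what means and for how long TCF-1 was induced, and whether the untreated cells carried the same construct is not stated by the labels. NIH-3T3 is an immortal line grown in culture, so each condition stands for cells of that line and not for fibroblasts of a tissue.

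Cohesin is a ring of SMC1, SMC3, RAD21 and a STAG subunit that NIPBL loads onto chromatin. It reels in DNA and enlarges a loop until it meets CTCF, a zinc finger protein bound at loop anchors and domain borders, and it also gathers at active promoters and enhancers. TCF-1, the product of Tcf7, is an HMG box protein that binds TCF/LEF motifs, works with beta-catenin as an effector of Wnt signalling, and opens and organises chromatin in developing T cells. Placing it in a fibroblast asks whether the factor, away from its own lineage, goes with a change in where cohesin is found.

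Promoter sequences of 5 genes are shown first because later results turn on them. For Vcl, Acta2, Flna and Tpm2, of the contractile programme, the covered length differed while the promoter window was covered from end to end in both lists. For Tmem176b, an induced peak reached into a window that no untreated peak touched. Each window runs from 250 bases before to 50 bases after the start of the gene, on the strand of the gene, from RefSeq on GRCm38.p6. They lie at chr14:20929148-20929447 (plus strand, Vcl), chr19:34255324-34255623 (minus, Acta2), chrX:74246485-74246784 (minus, Flna), chr4:43523505-43523804 (minus, Tpm2) and chr6:48840939-48841238 (minus, Tmem176b). Capitals mark a CArG box, the motif of serum response factor, in Vcl and the letters AGGGGGC, on either strand, in Tpm2 and Tmem176b.
Vcl: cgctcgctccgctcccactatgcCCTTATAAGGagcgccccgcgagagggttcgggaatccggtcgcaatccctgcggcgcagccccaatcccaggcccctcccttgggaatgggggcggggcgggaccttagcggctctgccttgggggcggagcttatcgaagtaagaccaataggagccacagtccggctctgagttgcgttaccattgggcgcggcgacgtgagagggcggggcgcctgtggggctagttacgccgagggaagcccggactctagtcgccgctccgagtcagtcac
Acta2: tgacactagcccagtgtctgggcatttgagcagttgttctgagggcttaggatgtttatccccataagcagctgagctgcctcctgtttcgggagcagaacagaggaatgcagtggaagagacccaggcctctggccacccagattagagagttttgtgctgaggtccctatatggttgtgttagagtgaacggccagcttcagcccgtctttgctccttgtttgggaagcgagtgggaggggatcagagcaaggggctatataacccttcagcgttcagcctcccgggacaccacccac
Flna: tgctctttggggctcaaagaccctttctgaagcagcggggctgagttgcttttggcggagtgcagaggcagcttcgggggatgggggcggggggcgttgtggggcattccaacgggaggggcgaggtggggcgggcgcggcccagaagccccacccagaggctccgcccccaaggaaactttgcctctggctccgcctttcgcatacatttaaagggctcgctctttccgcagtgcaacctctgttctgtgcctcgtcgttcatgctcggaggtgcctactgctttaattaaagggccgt
Tpm2: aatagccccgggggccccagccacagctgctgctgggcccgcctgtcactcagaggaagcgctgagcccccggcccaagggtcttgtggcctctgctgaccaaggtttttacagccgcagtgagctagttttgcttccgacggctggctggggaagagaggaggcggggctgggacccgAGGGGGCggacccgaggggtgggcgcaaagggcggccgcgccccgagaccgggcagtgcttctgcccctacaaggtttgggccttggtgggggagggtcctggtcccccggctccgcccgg
Tmem176b: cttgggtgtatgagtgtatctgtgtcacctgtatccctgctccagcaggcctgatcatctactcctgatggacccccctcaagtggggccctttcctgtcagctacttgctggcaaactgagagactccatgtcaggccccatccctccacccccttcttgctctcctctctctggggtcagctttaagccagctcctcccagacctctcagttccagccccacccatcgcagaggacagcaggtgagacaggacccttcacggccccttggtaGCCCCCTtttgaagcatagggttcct
A search of both strands was made for 4 strings: CTTTGAT and CTTTGAA (forms of the TCF/LEF motif that share all but their last letter), AGGGGGC (a form of part of the CTCF motif) and the CArG box (CC, then 6 bases that are A or T, then GG). Among the 32851 promoter windows of the table, 3.73% held CTTTGAT, 5.14% CTTTGAA, 10.6% AGGGGGC and 1.63% a CArG box. In none of the 5 windows shown was CTTTGAT or CTTTGAA present, and Acta2 and Flna held none of the 4 strings. Only exact matches were searched. The Acta2 window holds ccctatatgg and ccttgtttgg, which each differ from the CArG string by a single base. The lack of an exact match therefore does not show that a site for serum response factor is absent. A match describes the letters only.

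The untreated list held 105033 peaks that covered 97.7 Mb, and the induced list held 95293 peaks that covered 94.4 Mb. The median peak was 547 bp wide in untreated cells and 616 bp in induced cells. In both lists the smallest gap between neighbouring peaks was 801 bp, so stretches closer than that appear as a single peak and a covered length includes any gap of up to 800 bp joined within it. The lists give positions without read totals, so the depth is unknown, and where a list lacks a region it was only not called. The lists were read at marker genes of the cell type. All 27 genes of a matrix list (Col1a1, Fn1, Sparc and others) had a shared region within 10 kb of the gene body, as did 77.9% of all protein-coding genes, 15 of 22 genes of the T cell receptor list, 14 of 15 B and myeloid genes and all 16 housekeeping genes. Within the T cell receptor list, Cd4 and Lck had 6 shared regions each, while Cd3d and Cd8a had no peak in either list. Cohesin positions at these genes therefore do not tell the cell type. At Cdkn2a, a locus that NIH-3T3 cells are known to have lost, neither list held a peak. At Tcf7 itself, 5551 bp were covered in untreated and 4711 bp in induced cells, in 2 shared regions with 1 region private to each list. Peak positions alone do not check that induction worked.

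Most cohesin sites of the fibroblast were called in both conditions, and the sites called in a single condition were about as frequent as those between 2 replicates. Shared regions made up 68.0% of all regions, with 11.9% private to induced cells and 20.1% private to untreated cells. The private share, 32.0% in all, was set beside pairs of replicate lists of a single condition merged in the same way. It was 37.0% for SMC1 in DN3 cells with the empty vector and 29.5% in DN3 cells with the TCF1 knockout. These DN3 lists kept peaks as little as 149 bp apart, and joining their peaks across gaps of up to 800 bp brought the private shares to 33.1% and 25.1%. For fibroblast CTCF it was 24.7% untreated and 21.7% induced. The fibroblast SMC1 value therefore lay inside the range of replicate pairs of SMC1, and above both pairs of CTCF. With the untreated list reduced to its widest peaks, as many as the induced list held, 16994 regions were private to induced and 17058 to untreated cells. Lists of equal length give near-equal private counts by construction, so these numbers do not bear on the surplus of untreated-only regions.

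**Figure D1:**
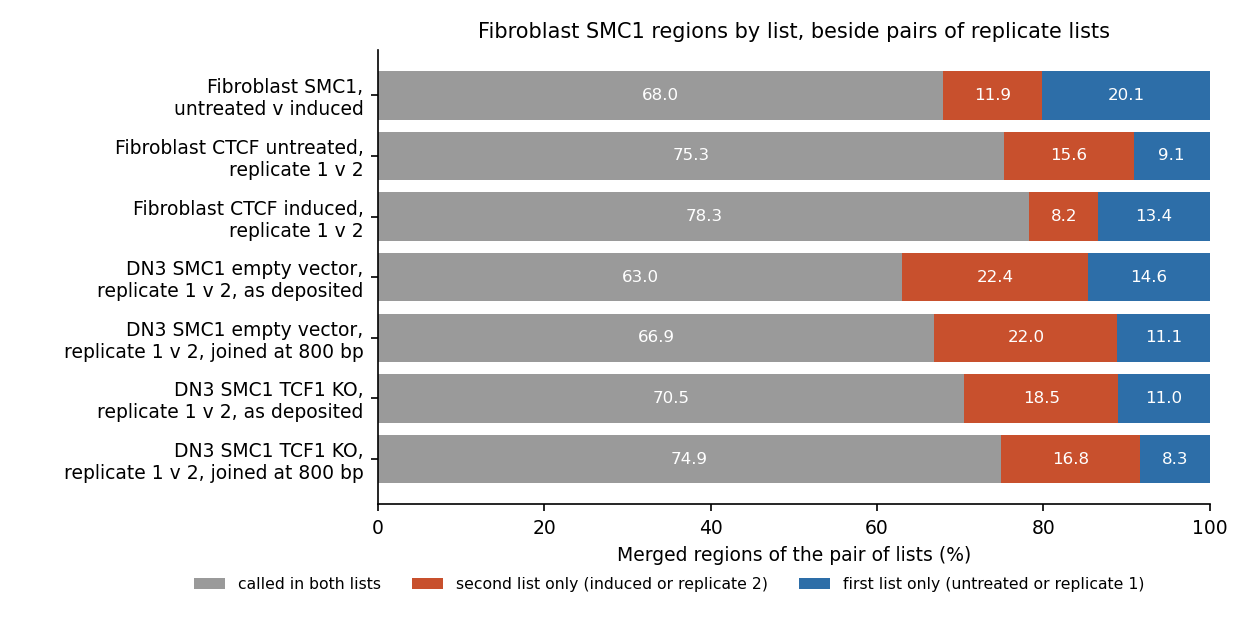
Share of merged regions (x axis, percent) called in both lists of a pair (grey), in the second list only (red) or in the first list only (blue), for fibroblast SMC1 and for pairs of replicate lists. The private part of the fibroblast SMC1 bar, 11.9% and 20.1%, is about as long as in the DN3 SMC1 replicate pairs.

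Private regions were narrow, and broad cohesin sites were shared. The median width was 876.5 bp for shared regions, 364 bp for induced-only regions and 297 bp for untreated-only regions. Regions of 300 bp or less made up 4.39% of shared, 38.6% of induced-only and 51.2% of untreated-only regions. From 200 to under 250 bp, 5.37% of regions were called in both lists. From 500 to under 750 bp the shared part was 71.8%, and from 2000 to under 5000 bp it was 98.5%. Only 93 induced-only regions (0.668%) and 105 untreated-only regions (0.446%) were wider than 2 kb, against 17.8% of shared regions. The median distance to the nearest shared region was 4508 bp for induced-only and 6251 bp for untreated-only regions, with 24.9% and 18.9% within 2 kb and 74.6% and 63.6% within 10 kb. The share for other positions in the genome was not measured. Beyond 50 kb lay 2.43% of induced-only and 6.81% of untreated-only regions.

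**Figure D2:**
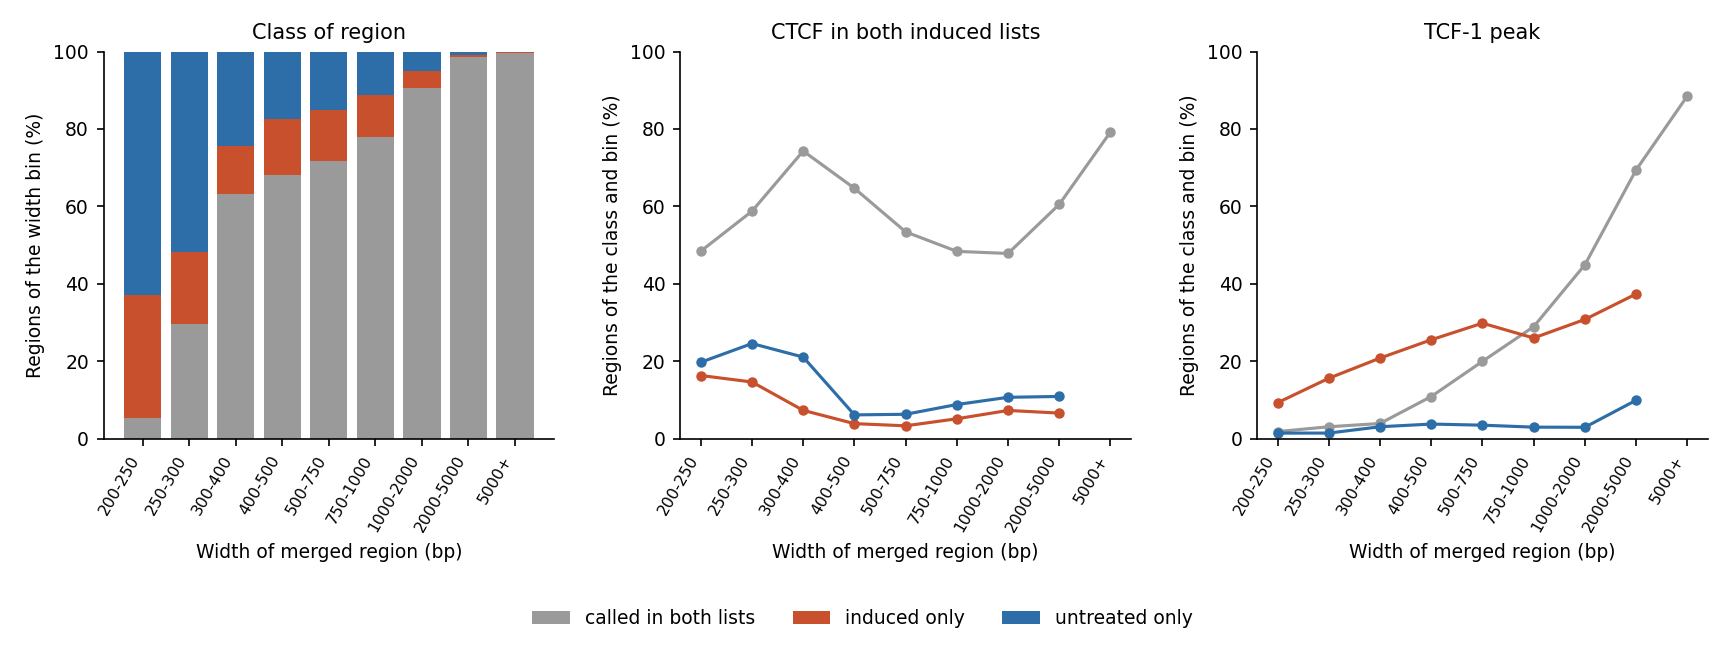
Left, class of region (percent of the regions in each width bin). Middle and right, percent of the regions of each class and bin with CTCF in both induced lists and with a TCF-1 peak, for classes with at least 20 regions in the bin. The shared share goes from 5.37% in the narrowest bin to 99.7% at 5 kb and over, and at every width plotted the CTCF share of shared regions lies above that of both private classes.

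CTCF, the protein at which cohesin stops, was called at a much larger share of shared than of private cohesin regions. CTCF was called in both untreated lists at 39.9% of shared regions, 1.38% of induced-only regions (192 of 13926, exact 95% interval 1.19% to 1.59%) and 2.59% of untreated-only regions (610 of 23568, 2.39% to 2.80%). These intervals, and those that follow, cover counting error only and say nothing about replicates. CTCF was called in both induced lists at 57.2% of shared, 9.31% of induced-only (8.83% to 9.80%) and 17.3% of untreated-only regions (16.9% to 17.8%). No CTCF list held a peak at 36.0% of shared, 85.0% of induced-only and 72.0% of untreated-only regions. So regions where cohesin was called only without TCF-1 carried CTCF of induced cells at a larger share than regions where it was called only with TCF-1. The induced CTCF lists were themselves longer, 64645 and 68306 peaks against 38369 and 41236 untreated. With all CTCF lists reduced to the widest 38369 peaks, the shares with CTCF of the same condition were 1.67% of induced-only and 2.23% of untreated-only regions. When SMC1 peaks narrower than their list's median were left out, the shares were 23.9% and 24.3%. That setting also changed the classes, since a region became private where the other list's peak was left out. In the unchanged classes, CTCF of the same condition lay on 3.30% of induced-only and 0.732% of untreated-only regions of 500 to under 750 bp. From 1000 to under 2000 bp it lay on 7.28% and 1.89%. Where a private region held CTCF of its own condition, the median distance between the centres was 37 bp in induced-only and 24 bp in untreated-only regions. In shared regions it was 76 bp for induced CTCF. The order of these distances is that of the median widths of the classes, and no comparison at equal width was made.

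Shared, untreated-only and induced-only regions kept this order of CTCF shares in each of the 8 width bins under 5 kb. Among regions of 300 to under 400 bp, CTCF was called in both induced lists at 74.3% of shared, 7.30% of induced-only and 21.1% of untreated-only regions. From 500 to under 750 bp the shares were 53.4%, 3.30% and 6.28%. Gained CTCF, called in both induced lists and in neither untreated list, lay on 10.1% of shared regions, 6.15% of induced-only regions (857, 5.76% to 6.57%) and 10.4% of untreated-only regions (2459, 10.05% to 10.8%). Lost CTCF, the reverse pattern, lay on 16 shared, 0 induced-only and 4 untreated-only regions. The count of 0 allows a share of up to 0.0265% by the exact interval.

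Read from the side of CTCF, regions in every CTCF list and gained regions, called in the induced CTCF lists alone, differed in how many carried cohesin. Of the 33515 CTCF regions in all 4 lists, 96.2% overlapped SMC1 regions of both lists and 1.49% overlapped none. Of the 15991 gained CTCF regions, 52.9% overlapped SMC1 called in both lists, 15.9% SMC1 called in untreated cells alone, 5.78% SMC1 called in induced cells alone and 25.4% none. Gained CTCF regions were narrow, with a median of 333 bp against 677 bp for regions in every list. The induced CTCF lists were longer (68306 and 64645 peaks against 38369 and 41236), and the part of list length in the gained class was not tested. Most gained CTCF regions with cohesin thus lay where SMC1 had already been called in untreated cells. The widest induced-only regions with gained CTCF lay in Rufy1 (3879 bp), at the start of Phf10 (1799 bp), in Shpk (1774 bp), in Tnks1bp1 (1764 bp) and at the start of Tmem176b (1750 bp). Phf10 encodes a subunit of the PBAF chromatin remodeller and Tnks1bp1 a protein that binds tankyrase. The Tmem176b region covers 147 bp of the promoter window printed above, and the CTCF peaks of both induced lists lie in the region outside that window. The marked letters AGGGGGC lie in the part of that window that the region does not cover. Tmem176b has 3 promoter windows, of which that one is shown. A promoter window of the neighbouring gene Tmem176a lies wholly inside the same region.

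**Figure D3:**
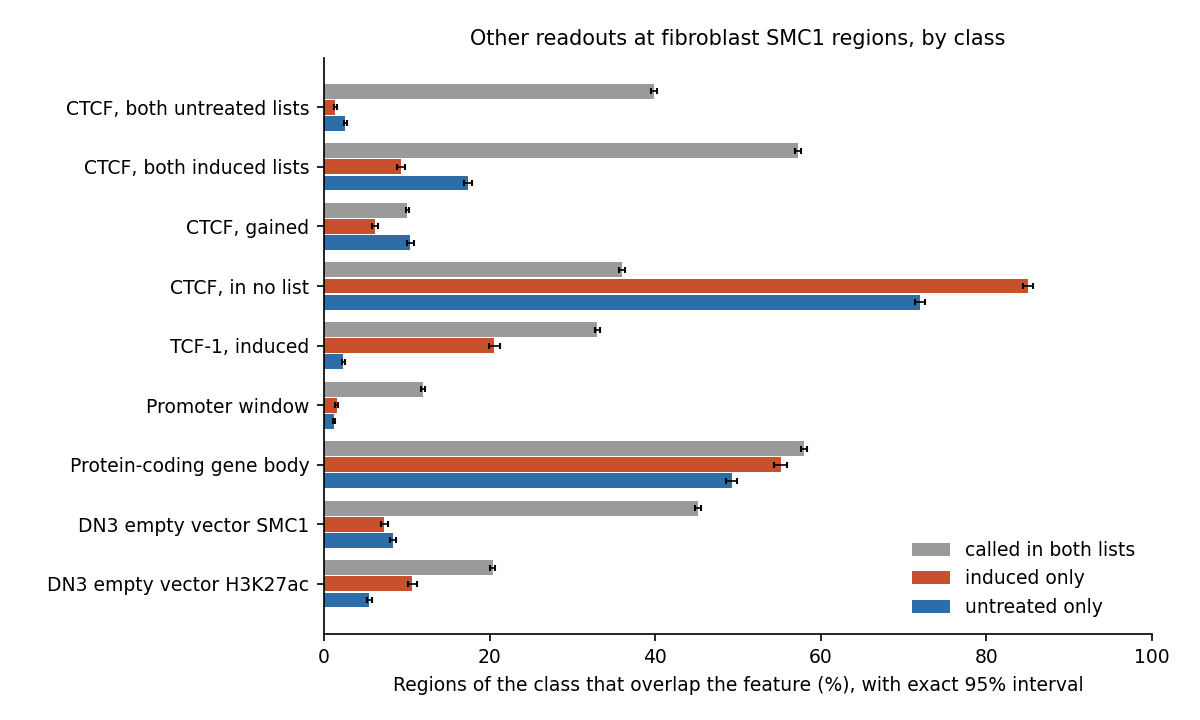
Percent of the regions of each class (x axis; grey shared, red induced only, blue untreated only) that overlap CTCF, TCF-1, promoter windows, gene bodies and DN3 peaks, with exact 95% intervals for counting error as bars. CTCF in no list stands at 85.0% of induced-only regions, and TCF-1 at 20.6% of induced-only against 2.34% of untreated-only regions.

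TCF-1 itself was found at a part of the induced-only cohesin regions. A TCF-1 peak overlapped 2862 induced-only regions (20.6%, 19.9% to 21.2%), 552 untreated-only regions (2.34%, 2.15% to 2.54%) and 33.0% of shared regions. TCF-1 and the induced SMC1 list come from cells of the same condition, and no TCF-1 list of untreated cells was used here. Regions called in only one of 2 replicate CTCF lists of fibroblasts overlapped TCF-1 at 13.3% and 14.9% (untreated) and 14.2% and 7.69% (induced). Within each bin under 750 bp, the share was larger in induced-only than in shared regions, for example 20.8% against 3.91% from 300 to under 400 bp. At wider regions it was not, with 30.8% against 44.9% from 1000 to under 2000 bp. Of the induced-only regions with TCF-1, 94.5% held CTCF in no list, 2.90% held it in both induced lists and 70 regions held gained CTCF. The widest of those with no CTCF lay 1690 bp from Rgma (3860 bp), in Sipa1l2 (3128 bp and 2843 bp), in Agap1 (2946 bp) and in Etv6 (2944 bp). Rgma encodes a membrane-anchored guidance molecule and BMP co-receptor, and Etv6 an ETS family repressor used in blood stem cells.

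Among shared regions, the ratio of covered length differed a little with TCF-1. Over all 79630 shared regions the median log2 ratio of covered length, induced over untreated, was -0.03. It was 0.07 for the 12611 shared regions with TCF-1 and no CTCF, and -0.10 for the 16048 with neither. In the group with TCF-1 alone, 22.9% were at least 1.5-fold wider and 13.4% at least 1.5-fold narrower in induced cells. In the group with neither protein the shares were 19.4% wider and 25.8% narrower. Where CTCF was in every list fewer regions passed the fold, with 9.11% wider and 7.78% narrower where TCF-1 was present and 7.51% and 10.6% where it was not.

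Features known from T cell precursors were also read at the fibroblast regions. DN3 cells with the empty vector had SMC1, in both of their lists, at 45.1% of shared, 7.27% of induced-only and 8.33% of untreated-only regions. H3K27ac, the acetylation found on active promoters and enhancers, was present in those DN3 cells at 20.4% of shared, 10.7% of induced-only (10.2% to 11.2%) and 5.47% of untreated-only regions (5.18% to 5.77%). For induced-only regions with TCF-1 the H3K27ac share was 11.7%, and without TCF-1 it was 10.4%. In the other classes the shares lay further apart, at 38.9% with and 11.2% without TCF-1 in shared regions and 10.7% and 5.34% in untreated-only regions. Regions with TCF-1 were wider in each class (in shared regions a median of 1638 bp against 634 bp), and no comparison at equal width was made. DN3 cells with the TCF1 knockout had H3K27ac, in both of their lists, at 19.99% of shared, 10.7% of induced-only and 5.10% of untreated-only regions. SMC1 of the knockout cells lay at 53.0%, 11.98% and 16.2%. Promoter windows were touched by 11.99% of shared, 1.52% of induced-only and 1.18% of untreated-only regions. Protein-coding gene bodies held 57.9%, 55.1% and 49.2%.

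Broad cohesin islands, taken as merged regions of at least 5 kb, numbered 1763, and 1757 of them were called in both lists. The median ratio of covered length was 1.00 over all islands. Covered length was at least 1.5-fold more in induced cells at 192 islands (10.9%) and at least 1.5-fold less at another 192 (10.9%). In replicate pairs of DN3 SMC1 joined at 800 bp, 36.4% of 376 islands (empty vector) and 11.6% of 999 islands (knockout) passed the same fold in either direction, against 21.8% here. The 192 islands with more coverage were a single peak in the induced list at 186 places, and the 192 with less were a single peak in the untreated list at 189. The list with less coverage had a median of 2 peaks per island in both groups, and a single peak at 34 of the islands with more and 44 of those with less coverage in induced cells. Islands with less coverage in induced cells touched a promoter window at 72 places (37.5%, 30.6% to 44.8%), and those with more at 37 (19.3%, 13.9% to 25.6%). Both shares were below the 47.8% of the remaining islands and the 43.6% of all islands. TCF-1 lay on 70.3% of islands with less, 78.1% with more and 92.2% of the remaining islands. CTCF was in every list at 53.6%, 49.0% and 69.3%.

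**Figure D4:**
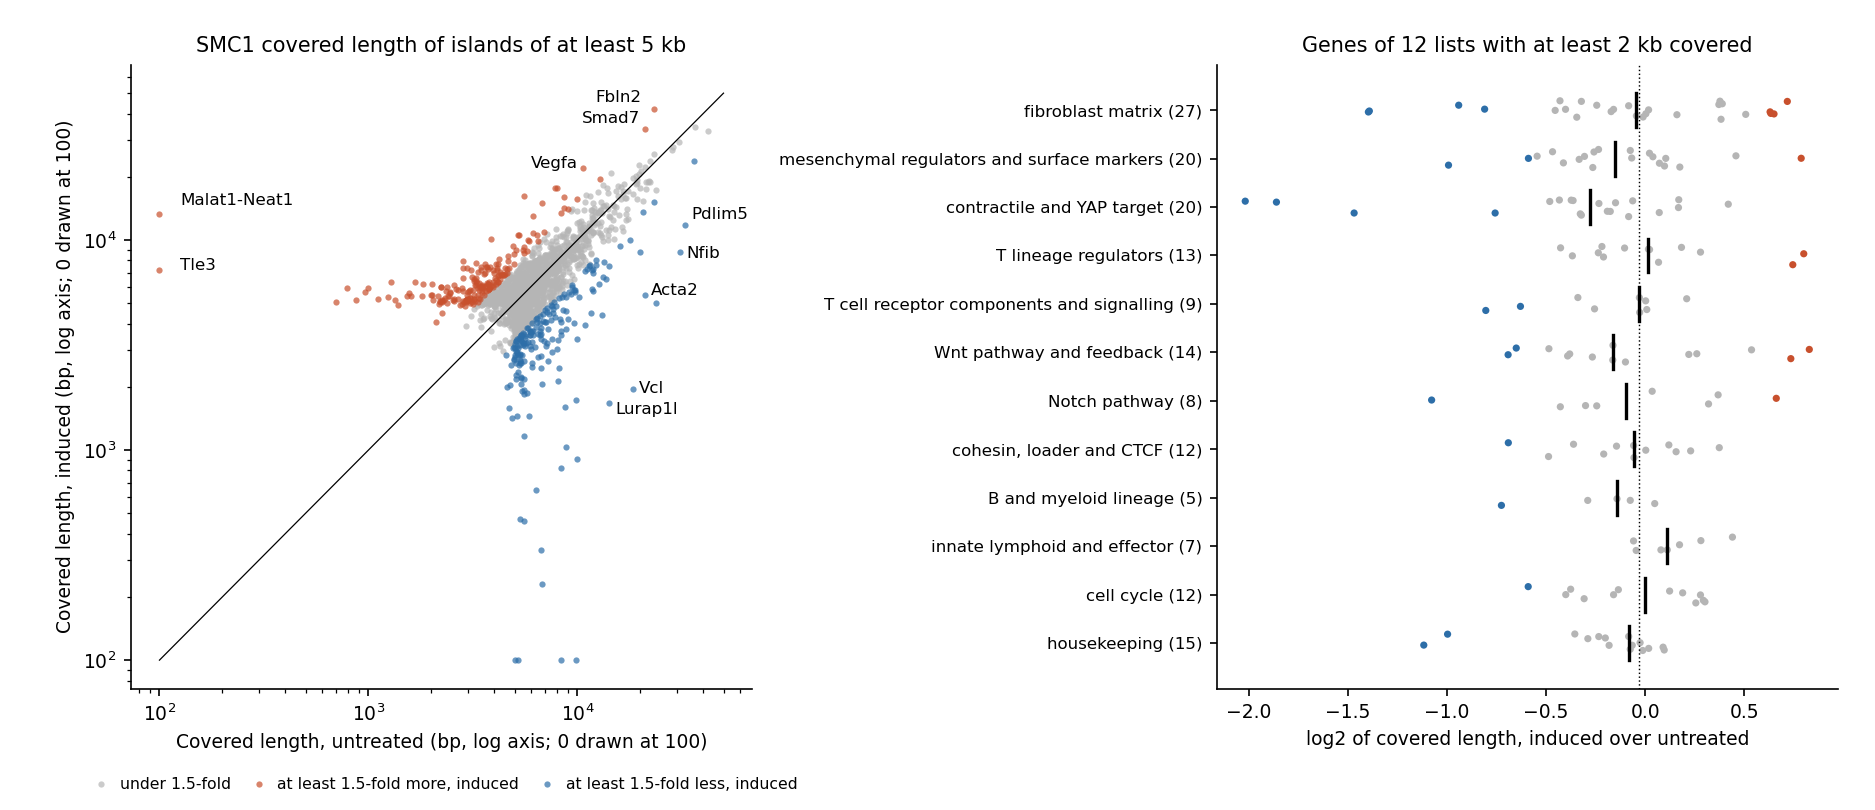
Left, SMC1 covered length of each of the 1763 islands in untreated (x axis) and induced cells (y axis), both in bp on log axes with 0 drawn at 100; red and blue points differ at least 1.5-fold. Right, log2 ratio of covered length, induced over untreated, for genes of 12 lists with a mean of at least 2 kb covered (number in brackets); black bars are medians, the dotted line is the median of all 12303 such genes, and the contractile list has 4 genes at least 1.5-fold lower and none as much higher.

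The island with the largest gain lay over Fbln2, which encodes the extracellular matrix protein fibulin-2. There 23293 bp were covered in untreated cells by 7 peaks and 42194 bp in induced cells by 2 peaks. It was also the widest region of all, at 43506 bp, and held 10 TCF-1 peaks. At Smad7, the inhibitor of TGF-beta signalling, 21019 bp in 5 peaks stood against 33655 bp in a single induced peak with 11 TCF-1 peaks. Smad3, which carries that signal to the nucleus, had 7823 bp against 17643 bp. Vegfa, the vascular growth factor, had 10659 bp against 22120 bp, and Col4a1, a collagen of basement membranes, had 5544 bp against 16245 bp. Bcar1, an adaptor at cell adhesions, had 8633 bp against 16002 bp. At Tex26 the values were 7952 bp and 17738 bp. In Tle3, a Groucho co-repressor that TCF proteins bind, a block of 7186 bp was called in induced cells and no base of it in untreated cells, and it held no peak of TCF-1 or CTCF.

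The widest induced-only region, 13290 bp at chr19:5808310-5821599, lay between the long noncoding RNA genes Malat1 and Neat1, 3108 bp from Neat1. No SMC1 peak was called in untreated cells between positions 5807186 and 5862365. The region held 5 TCF-1 peaks, and CTCF was called there in every list, with 3 and 2 peaks untreated and 5 and 5 induced. A second induced-only peak of 2667 bp followed and reached 519 bp into Neat1. Neat1, whose RNA builds nuclear paraspeckles, had 13 TCF-1 peaks over its 20773 bp. Malat1, whose RNA is found in nuclear speckles, was covered over its whole 6983 bp in both lists. In DN3 cells the same interval held 2 and 4 SMC1 peaks with the empty vector and 3 and 4 with the knockout.

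The 10 islands with the largest loss of covered length included those at Vcl and Acta2, of the contractile list, and at Col1a2, of the matrix list. The share of all islands that lie at genes of these lists was not measured. Pdlim5, which encodes a PDZ and LIM domain protein of actin fibres, had 32881 bp in a single untreated peak and 11757 bp in 7 induced peaks. At Palld, palladin of stress fibres, 23853 bp stood against 5027 bp, and a second block of 5023 bp beside it was called in untreated cells only. Vcl, vinculin of focal adhesions, had 18446 bp in a single untreated peak and 1955 bp in 5 induced peaks. Acta2, smooth muscle actin and a mark of contractile fibroblasts, had 21044 bp against 5450 bp. Lima1, an actin cross-linker, had 35950 bp against 23757 bp. The largest loss lay in Nfib, a nuclear factor I gene, with 31024 bp untreated and 8785 bp induced. Cav1, the main protein of caveolae, had 19842 bp against 8782 bp at its start and a further untreated-only block of 8322 bp. In Ptn, which encodes the secreted growth factor pleiotrophin, 9825 bp were called in untreated cells and none of them in induced cells. Col1a2, of type I collagen, had 42117 bp in a single untreated peak against 32971 bp in 9 induced peaks, a difference under the limit of 1.5-fold. Lurap1l had 14235 bp against 1672 bp. These 10 islands were named because their values were the most extreme.

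**Figure D5:**
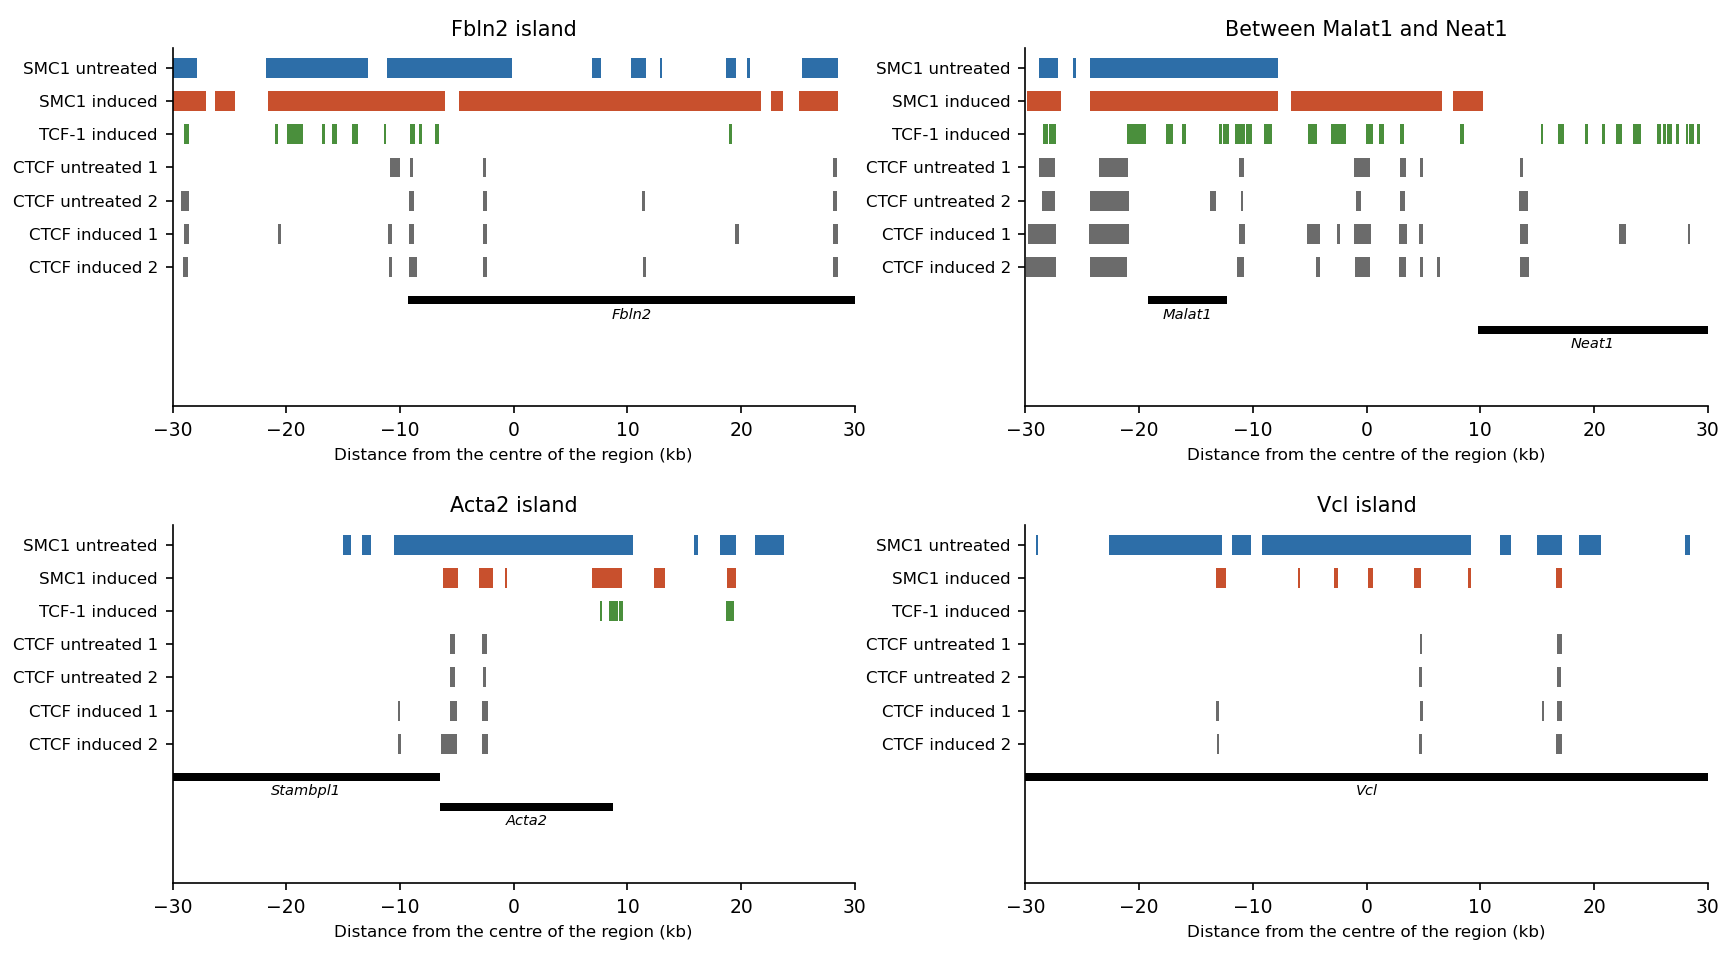
Peaks of each list (bars) within 30 kb of the centre of 4 regions, against distance in kb, with gene bodies in black. At Fbln2 and between Malat1 and Neat1 the induced SMC1 bars are longer; at Acta2 and Vcl a block of 21044 bp and of 18446 bp in untreated cells is replaced by 4 and 5 short induced peaks.

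Genes were then read by list. SMC1 covered length was summed over each gene body extended by 10 kb, and the 12303 protein-coding genes with a mean of at least 2 kb were compared. At least 1.5-fold more was covered in induced cells at 708 genes (5.75%) and at least 1.5-fold less at 1045 genes (8.49%), with a median ratio of 0.979. Replicate pairs of DN3 SMC1 joined at 800 bp gave 10.96% and 4.68% of genes past the same fold with the empty vector and 4.86% and 1.22% with the knockout. An induced-only region lay at 5808 of 21883 protein-coding genes (26.5%) and an untreated-only region at 8523 (38.9%).

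The contractile and YAP target list had the lowest median of the 12 lists. It holds genes known to respond to serum response factor or to YAP, and also regulators themselves (Yap1, Wwtr1, Tead1, Srf, Mrtfa and Mrtfb). Its 20 genes compared had a median ratio of 0.825, with 16 of 20 under 1, none at least 1.5-fold more and 4 at least 1.5-fold less. Over all genes compared, 6592 of 12303 were under 1. The housekeeping list had a like share, with 12 of 15 under 1, none with more and 2 with less, and so did the B and myeloid list, with 4 of 5. Vcl had 48601 bp untreated and 11992 bp induced, and Acta2 had 23544 bp and 6479 bp. Flna, the actin cross-linker filamin A, had 21607 bp and 7803 bp. Tpm2, a tropomyosin, had 7691 bp and 4549 bp. Flna lies on the X chromosome, where covered length was lower as a whole (a ratio of 0.777), and its part in that value was not tested. The promoter windows of these 4 genes, printed above, lay inside SMC1 peaks of both lists over all 300 bases, and those of Vcl and Acta2 also inside TCF-1 peaks. The lost length therefore lay outside the promoter windows. Yap1 itself had 6551 bp and 8760 bp, and the partner Tead1 45544 bp and 42978 bp. The list was chosen with earlier results of these data known, and its count was 3 to 5 genes under each alternative tried. Its median ratio ranged from 0.801 without narrow peaks to 0.911 with an extension of 50 kb, and the share of all genes with less from 1.93% at 2-fold to 11.7% without narrow peaks.

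Matrix genes went in both directions. Of 27, 4 had at least 1.5-fold more and 4 at least 1.5-fold less, with a median ratio of 0.970. Those with more were Col5a1 (31722 bp untreated and 52152 bp induced), Col6a3 (26107 and 40410 bp), Loxl1 (19785 and 30707 bp) and Sparc (13067 and 20505 bp). Those with less were Fn1 (54657 and 31162 bp), Postn (17614 and 6709 bp), Eln (6117 and 3185 bp) and Lum (4320 and 1640 bp). Fibronectin, periostin and elastin are secreted fibres or adhesive proteins, Col5a1 and Col6a3 are collagen chains and Loxl1 cross-links elastin. Col1a1 hardly differed (26287 and 26598 bp). Among mesenchymal regulators and surface markers, Twist2 had more (14527 and 25071 bp), while Prrx2 (22770 and 11441 bp) and Cdh11 (12480 and 8294 bp) had less, of 20 compared.

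Of 21 regulators of the T lineage, 13 reached the floor of 2 kb, with a median ratio of 1.01. Ets1, an ETS factor of lymphocytes, had 33781 bp untreated and 58825 bp induced, with 8 induced-only regions, 1 untreated-only region and 18 TCF-1 peaks. Ets2 had 6432 and 10779 bp. None had at least 1.5-fold less. Gata3 (2220 and 1908 bp), Lef1 (3774 and 3832 bp) and Runx1 (31710 and 33222 bp) differed by less than 1.5-fold, and Bcl11b (1609 and 922 bp) was under the floor. In the T cell receptor list, 9 of 22 were compared, none had more and Cd5 (5728 and 3279 bp) and Themis (3480 and 2249 bp) had less. At Cd28, the co-stimulatory receptor, which was under the floor and so not compared, 3 induced-only regions of 1005 bp in total stood against no untreated peak.

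In the Wnt list, 14 of 20 genes were compared, with 2 at least 1.5-fold more and 2 at least 1.5-fold less. The median ratio was 0.893, with 9 of 14 under 1. Ctnnb1, which encodes beta-catenin, had 8310 bp untreated and 14754 bp induced, and Nkd2, a feedback inhibitor, had 1737 and 2891 bp. The secreted Wnt antagonists Sfrp1 (3787 and 2344 bp) and Wif1 (2781 and 1771 bp) had less. Under the floor, the feedback genes Axin2 (1308 and 2502 bp), Lgr5 (1288 and 2524 bp) and Nkd1 (874 and 2799 bp) had more covered in induced cells, while Sfrp2 (2133 and 1004 bp) had less. Over the floor, members went both ways by less than 1.5-fold. Lgr4 (8163 and 5828 bp), Rnf43 (3915 and 3254 bp) and Znrf3 (19873 and 18545 bp) were lower in induced cells, and Notum (2022 and 2355 bp) and Apcdd1 (3387 and 4913 bp) higher. In the Notch list, Notch1 had 10842 and 17149 bp and its ligand Jag1 17410 and 8246 bp, the 2 genes of 8 past the fold. Cohesin, loader and CTCF genes had 1 of 12 past it, Hdac8 (4966 and 3076 bp), the SMC3 deacetylase. The loader gene Nipbl had 4 untreated-only and no induced-only regions (8938 and 6373 bp). Other lists had few past the fold. These were 1 of 5 B and myeloid genes (Itgam, 2623 and 1586 bp), 1 of 12 cell cycle genes (Ccnd2, 8605 and 5714 bp), 0 of 7 innate lymphoid and effector genes, and 2 of 15 housekeeping genes with less (Hprt, 7963 and 3988 bp, and Ppia, 7033 and 3241 bp).

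The genes with the largest surplus of private regions of either kind were long. Rora, a nuclear receptor gene of 735 kb, had 33 induced-only and 2 untreated-only regions, with 13775 bp covered untreated and 33444 bp induced. Camta1 had 26 and 5, Klhl29 17 and 1, Itpr2, an inositol trisphosphate receptor of the endoplasmic reticulum, 18 and 3, and Septin9, of the septin cytoskeleton, 11 and 0. On the other side, Bnc2, a zinc finger gene, had 34 untreated-only and 10 induced-only regions. Prkg1, a cGMP-dependent kinase of smooth muscle, had 29 and 6, with 63801 bp covered untreated and 34419 bp induced. Esrrg, an orphan nuclear receptor, had 20 and 1. Cmss1 and Filip1l, whose bodies overlap on chromosome 16, had 18 and 17 untreated-only regions against 2 each, and these are largely the same regions. The largest such excess in a gene was 31 for induced-only and 24 for untreated-only regions. Between the DN3 SMC1 replicates joined at 800 bp it reached 47 with the empty vector and 25 with the knockout.

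The widest private blocks were found in genes already named and in a few others. After the block between Malat1 and Neat1 and that in Tle3, the widest induced-only regions lay in Col4a2 (4700 bp), Col6a3 (4604 bp), Zswim7 (3976 bp), Rufy1 (3879 bp), near Rgma (3860 bp), and in Thada (3682 bp), Septin9 (3386 bp) and Lrp1 (3326 bp). After Ptn and Cav1, the widest untreated-only regions lay in Nfkbiz (5205 bp), an inhibitor of NF-kappa-B signalling, Palld (5023 bp), Jag1 (4972 bp), Nfib (4771 bp) and near Itgb1 (4614 bp), the beta-1 integrin. Next came Flna (4526 bp) and Ttll3 (4416 bp), the last over a promoter window. A second block near Itgb1 (4268 bp) completed the 10 widest. No TCF-1 peak lay on the 10 widest untreated-only blocks. Of the 10 widest induced-only blocks, those between Malat1 and Neat1 (5 peaks), near Rgma (1 peak) and in Thada (2 peaks) held TCF-1.

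Few promoters were private. Of 32851 windows, 12905 (39.3%) touched a shared region, 236 (0.718%) an induced-only and 303 (0.922%) an untreated-only region. A TCF-1 peak touched 67.6% of windows in shared regions, 11.02% in induced-only and 3.63% in untreated-only regions. CTTTGAA was present in 8.47% of windows in induced-only regions (20 of 236), 4.29% in untreated-only regions (13 of 303) and 3.53% in shared regions. CTTTGAT was present in 5.08%, 3.96% and 2.49%, and AGGGGGC in 7.63%, 7.59% and 16.2%. The median GC content of the windows was 53.3%, 50.7% and 60.7%. A CArG box was present in 1.69% of windows in induced-only, 2.97% in untreated-only (9 of 303) and 1.30% in shared regions, against 1.63% of all windows. In the contractile list, 4 of 23 windows (17.4%) held one. That list holds genes known to respond to serum response factor, so its share follows in part from how the list was chosen.

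The X chromosome stood apart from the autosomes. It held 137 induced-only and 643 untreated-only regions, so that 17.6% of its private regions were induced-only, against 27.6% to 47.2% on single autosomes and 37.1% over the genome. SMC1 covered 1.63 Mb of it in untreated and 1.27 Mb in induced cells, a ratio of 0.777. This is the chromosome of Flna, Hprt and Hdac8, and autosome ratios ranged from 0.864 on chromosome 2 to 1.09 on chromosome 9. The X also lay outside the autosomes in both DN3 SMC1 replicate pairs as deposited. There replicate 2 held 79.0% of the private X regions with the empty vector, where autosomes ranged from 50.8% to 68.7%, and 74.6% with the knockout, where they ranged from 58.4% to 70.8%. In both replicate pairs of fibroblast CTCF the X lay inside the range of the autosomes. Replicate 2 held 65.9% of the private X regions untreated (autosomes 59.0% to 66.5%) and 35.9% induced (autosomes 34.7% to 41.8%).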

How the data were processed

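Chromatin immunoprecipitation was profiled in 25 samples, and the lists used here held peak positions only. Cells were fixed with 1% formaldehyde, libraries made with NEBNext Ultra II and sequenced in pairs of 38 and 37 bp, per the labels' protocols. Bowtie2, MACS2, bedtools and the mm10 build were named per the submitters' processing notes. Software versions and thresholds, any control libraries and any joining of nearby peaks were not given in the sources used here. NIPBL and H3K27ac files also held scores and fold values that the authors deposited, not used here.

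Groups came from the labels. Both fibroblast SMC1 lists were merged (gap 0 bp), and a region counted for a list where 1 bp or more overlapped. A DN3 group or a CTCF condition counted where both of its lists overlapped. With 1 SMC1 list per condition no test was made, and no p-value is given. Shares have exact (Clopper-Pearson) 95% intervals for counting error. Whether replicate samples came from separate cultures is not given. Gene names and positions came from RefSeq on GRCm38.p6 (21883 protein-coding genes, 32851 promoter windows), and all 220 entries of 12 gene lists matched. Folds of covered length used 1.5 as the limit, islands 5 kb and genes an extension of 10 kb.

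Named genes were those at the 10 widest regions of each class, the 10 largest gains and losses of islands, the 10 largest excesses of private regions each way, list members, and the widest induced-only regions with gained CTCF or with TCF-1 and no CTCF. Some items under this rule are not reported here. The members and lists were chosen with earlier results of these data known. Genes picked from the gene lists for the text, the promoters printed and the Malat1 to Neat1 interval were chosen after their values were seen. Alternatives covered list length, peak width, merging, overlap, chromosomes, CTCF lists, island size, fold and gene window. Those for the contractile list, and joining DN3 peaks at 800 bp, were chosen after seeing the data. Merging with bedtools 2.31.1 gave the same 117124 regions, and the code, tested on simulated data, returned the planted class of 6000 of 6000 regions. Computation used python 3.11.15, numpy 2.4.6, pandas 2.3.3, scipy 1.17.1 and matplotlib 3.10.9.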

Additional observations from a re-analysis of the deposited data

How the results depend on the processing

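Of 63 alternatives, 31 were labelled near the reported value and 32 moved from it, by a looser limit for counts than for shares. With peaks covering 50% of a region, a count of 19717 induced-only regions was labelled near 13926. A CTCF share of 8.258% of induced-only regions was labelled moved from 9.306%. Keeping chromosomes 1 to 19 and X only left the private counts at 13926 and 23568, so that setting could not test them. The split therefore does not measure how stable the results were. Without the peaks narrower than their list's median, 9023 regions were private to induced and 13814 to untreated cells, and CTCF of their own condition lay on 23.94% and 24.32% of them. These include regions that counted as private only because the narrow peak of the other list was left out. At equal SMC1 list length 13.92% of induced-only regions had CTCF in both induced lists, and requiring peaks to cover 50% of a region gave 16.09% (induced only) and 6.452% (untreated only). CTCF in either list of the condition gave 14.82% and 8.032%, CTCF lists of equal length 1.666% and 2.228%, and the CTCF centre inside the region 8.258% of induced-only regions. Leaving out a CTCF list gave 11.58% to 12.54% of induced-only and 4.684% to 5.936% of untreated-only regions.

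Islands of at least 3 kb counted 890 with more and 793 with less coverage, islands of at least 10 kb 24 and 34, and a limit of 2-fold 72 and 75. Genes with an induced-only region were 31.33% at equal list length, 20.52% with wide peaks, 32.96% with 50% coverage, 17.89% with no extension and 48.46% with 50 kb. For untreated-only regions they were 30.62%, 27.64%, 43.77%, 25.81% and 65.95%. The cause of these moves was not tested, apart from those that follow from fewer peaks or wider windows. No paired analysis was possible because SMC1 had 1 list per condition and no test was fitted.

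With 1 SMC1 list per condition, a difference between conditions and a difference between 2 libraries cannot be told apart. The lists carry no read totals, so the part of depth in the private calls, most of them narrow, was not tested.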

Other observations

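Private regions differed with gene density. In 1 Mb bins with 0 to 2 protein-coding genes, 27.2% of private regions were induced-only (1522 of them, against 4072 untreated-only). The share was 33.5% with 3 to 5 genes, 38.5% with 6 to 10, 42.4% with 11 to 20 and 41.7% with more than 20. The bins with the largest surplus of untreated-only regions included one with Jag1 as its sole protein-coding gene (37 untreated-only and 1 induced-only), one with Nfib (44 and 10) and one with Mbnl1, a splicing regulator (33 and 0). Those with the largest surplus of induced-only regions included the bin of Zfpm1, Piezo1 and Cyba on chromosome 8 (37 induced-only and 9 untreated-only) and its neighbour with Foxf1 and Foxc2 (29 and 5). The bin of Erg and Ets2 held 30 and 8. These bins were chosen for their values.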
